A study of Mus musculus with 47 samples.

Results

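Crypts of the small intestine from Apc1638N/+ mice were compared with crypts from wild-type mice. The 4 arrays titled as Apc1638N/+ crypts and the 4 titled as wild-type crypts were taken, 8 of the 47 arrays of the series, and every probe set was read as the log2 level in Apc1638N/+ minus that in wild type. Both groups were C57BL/6 mice aged 3 months and fed the Ain76A diet, and they differed by genotype alone according to the labels. The series also holds p21-/- crypts and villi from all 3 genotypes at the same age and on the same diet. It further holds crypts and villi of mice kept for 1 year on Ain76A, NWD1 or NWD2. All samples were total RNA hybridised as biotinylated cRNA to Affymetrix 3' expression arrays.

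Apc encodes the scaffold of the cytoplasmic complex that marks beta-catenin for destruction, and so restrains Wnt signalling. In the intestine, Wnt signals at the crypt base maintain stem cells and Paneth cells, and cells that leave this zone stop dividing and differentiate as they move towards the villus. Apc1638N is a targeted allele in which Apc is truncated. Heterozygous mice keep a normal copy in every cell and develop few intestinal tumours, so their crypts are used as a model of mucosa at risk rather than of tumour tissue. The labels do not say whether replicates came from separate mice, so the p-values below measure spread between samples. The limma p-values and SEs use a spread pooled over all 12 groups of the series, not that of the 2 compared crypt groups alone. When only the groups compared were fitted, 0 probe sets passed in Apc1638N/+ against wild-type crypts, and the smallest limma adjusted p was 0.975. The exact permutation p-values use the crypt arrays compared and no others. In bulk RNA of this kind, fewer cells of a type and less RNA per cell cannot be told apart.

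The 8 crypt arrays were uneven, and 1 of them stood apart from its own group. Many cells of the deposited table are blank, and a probe set with a value is called measured here. The Apc1638N/+ crypt arrays 1 to 4 had 15802, 15418, 18748 and 21855 measured probe sets, and the wild-type crypt arrays had 22020, 19385, 20001 and 19034, within the 14758 to 23296 of the whole series. Among the other 46 arrays, the one most correlated with Apc1638N/+ crypt array 3 was wild-type crypt array 3 (r = 0.978), while its best correlation with an array of its own group was 0.901. The pair correlated more closely than any 2 arrays within either of the groups, which reached 0.939 at most, and whether the 2 arrays share RNA or one carries a wrong label was not tested. Every count below rests on the labels as given. Apc1638N/+ crypt arrays 1 and 2 correlated most with p21-/- crypt array 1, at 0.944 and 0.929. A crypt-villus score, the mean level of 191 genes higher in crypts of mice fed Ain76A for 1 year minus that of 215 genes higher in their villi, was 1.73, 1.35, 1.27 and 0.55 in Apc1638N/+ crypts and 2.10, -0.05, 1.08 and 0.14 in wild-type crypts. The 3-month wild-type villi lay from -2.76 to -1.91 on that scale, and the 1-year Ain76A crypts that define it from 1.86 to 2.66. All 8 arrays thus lay above these villi, with wild-type arrays 2 and 4 closest to villus and between the 2 ranges. The score did not separate the genotypes (difference 0.41, exact permutation p = 0.486, two-sided).

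Control probe sets also differed among the arrays. The 3' minus 5' level of beta-actin, which grows as RNA is shortened or copied incompletely, was 2.98, 3.30, 1.31 and 2.45 in Apc1638N/+ crypts and 1.17, 2.60, 1.11 and 1.89 in wild-type crypts (exact permutation p = 0.2, two-sided). The same measure of Gapdh was 0.05, 0.44, 0.25 and 0.81 in Apc1638N/+ crypts and 0.01, 1.40, 0.58 and 0.96 in wild-type crypts. Its difference had the opposite sign, -0.35 (exact permutation p = 0.343, two-sided). Probe sets for the B1 repeat, a short interspersed element common in introns, read 13.7, 14.1, 12.4 and 12.8 in Apc1638N/+ crypts against 11.8, 12.6, 12 and 12.7 in wild-type crypts (exact permutation p = 0.114, two-sided). Over 8 such measures the lowest adjusted p was 0.267, and the smallest p that 4 arrays against 4 allow is 0.0286. The beta-actin and B1 measures were highest on Apc1638N/+ arrays 1 and 2, and within that group lowest on array 3. Gapdh did not share this order. Because Apc1638N/+ array 3 sits so close to a wild-type array, results are given below with and without it.

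**Figure D1:**
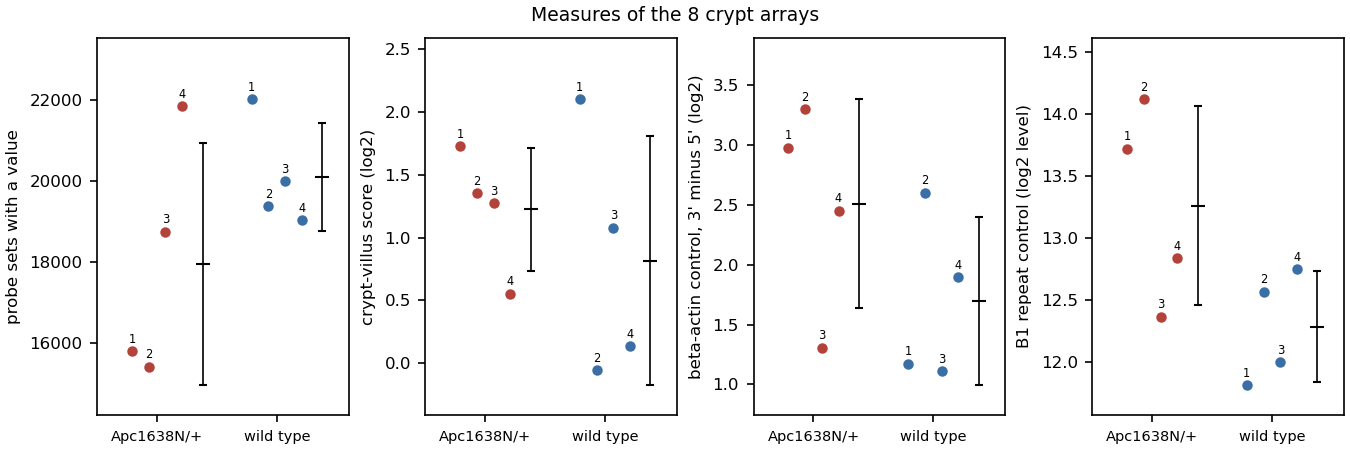
Measures of each crypt array, with Apc1638N/+ left of wild type in every panel; numbered points are arrays and the black mark beside each group is its mean ± SD. Apc1638N/+ arrays 1 and 2 had the fewest measured probe sets (15802 and 15418), and Apc1638N/+ array 3 had a 3' minus 5' actin difference of 1.31, inside the wild-type range.

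The crypts were checked for the cells they hold. All 43 enterocyte genes on the array gave a value on some of the 8 arrays and 40 on all of them, and 19 of 23 crypt base stem cell genes and 10 of 16 Paneth cell genes were measured on all 8. Of 29 genes of intraepithelial and other lymphocytes, 9 were measured on all 8 arrays, so lymphocyte RNA was also sampled. Of 13 B and plasma cell genes 5 were measured on all 8, and of 24 myeloid and antigen-presenting cell genes 7. Of 26 genes of stroma, muscle and vessels, 1 was measured on all 8 and 13 on none. For red blood cells 0 of 6 genes were measured on all 8, and for tuft cells 1 of 17.

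Apc itself did not separate the genotypes. Its probe set with the highest level read 10.92, 10.96, 10.24 and 10.82 in Apc1638N/+ crypts and 10.91, 10.87, 10.30 and 10.04 in wild-type crypts, a difference of 0.20 ± 0.20 (SE; limma adjusted p = 0.690). A second tested probe set differed by 0.17, and the groups overlapped on both. A 3' probe set does not show whether a transcript carries a truncating mutation, so this level does not check the genotype labels. Around Apc on its chromosome, 89 genes with a start within 20 Mb were tested and 0 passed, beside 5 of all 7289 tested genes (0.0686%). With so few calls, a count of 0 does not set this region apart. At an unadjusted limma p under 0.05 were 8 of the 89 (8.99%), beside 12.3% of all tested genes.

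Few transcripts separated Apc1638N/+ from wild-type crypts. Of 12535 tested probe sets, 12 passed at a Benjamini-Hochberg adjusted p under 0.05 by limma (0.0957%), of which 9 rose (0.0718%) and 3 fell (0.0239%). Those that rose belong to the nuclear factors Ankrd12, Atrx, Nucks1 and Hnrnph1, the signalling proteins Rapgef6, Dock9 and Il6st, a beta-actin probe set and a probe set with no gene symbol. Those that fell belong to Mettl3, Ext2 and AU040320. At an unadjusted p under 0.05 there were 1673 probe sets, 905 above wild type and 768 below (13.3%), and the median difference over all tested probe sets was 0.00. On 224 probe sets (1.79%) the measured arrays of the genotypes did not overlap, 138 of them higher (1.1%) and 86 lower (0.686%) in Apc1638N/+. Taking each gene by its probe set of highest level, 2 of 7289 genes rose and 3 fell (5 in all, 0.0686%). The measured arrays of the genotypes did not overlap for 116 of these genes (1.59%). The count of 12 rested on single arrays: it was 0 without Apc1638N/+ array 1 or 2, 1061 without Apc1638N/+ array 3, 33 without Apc1638N/+ array 4, 315 without wild-type array 1, 1 without wild-type array 2 or 3, and 9 without wild-type array 4.

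Promoters of 3 of these genes are shown because Wnt signals act on genes through TCF/LEF factors and gp130 signals through STAT factors, so the letters each factor reads can be looked for at the start of the genes that moved. Sequences run 5' to 3' from 250 bases before to 50 after a RefSeq transcript start (GRCm38.p6), in lower case with a motif match in capitals. They are Ankrd12 at chr17:66076997-66077296 on the minus strand, Il6st at chr13:112463820-112464119 on the plus strand and 1 of the Hnrnph1 starts at chr11:50376740-50377039 on the plus strand.
Ankrd12: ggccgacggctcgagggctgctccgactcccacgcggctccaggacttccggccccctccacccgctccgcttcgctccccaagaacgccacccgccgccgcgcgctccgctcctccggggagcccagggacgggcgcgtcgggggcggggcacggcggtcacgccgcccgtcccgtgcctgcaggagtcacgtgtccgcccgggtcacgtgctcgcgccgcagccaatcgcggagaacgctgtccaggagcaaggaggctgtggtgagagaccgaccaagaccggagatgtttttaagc
Il6st: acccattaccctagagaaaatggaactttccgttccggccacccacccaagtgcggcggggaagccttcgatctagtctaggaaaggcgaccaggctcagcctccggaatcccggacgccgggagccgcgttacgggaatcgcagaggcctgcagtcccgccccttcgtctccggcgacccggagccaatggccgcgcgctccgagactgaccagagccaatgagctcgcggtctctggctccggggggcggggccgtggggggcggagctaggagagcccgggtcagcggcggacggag
Hnrnph1: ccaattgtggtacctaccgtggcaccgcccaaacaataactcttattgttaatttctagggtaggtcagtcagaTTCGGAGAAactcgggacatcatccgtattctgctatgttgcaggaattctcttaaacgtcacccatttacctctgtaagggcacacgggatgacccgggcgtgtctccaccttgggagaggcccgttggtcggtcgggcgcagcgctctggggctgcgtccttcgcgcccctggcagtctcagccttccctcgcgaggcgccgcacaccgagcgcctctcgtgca
The TCF/LEF core was searched as CTTTGAT or CTTTGTT, and the STAT site as TTCNNNGAA, each on both strands; the letters do not overlap each other. Of the 11 called genes with a symbol, 10 had promoters in the table, 17 windows in all, and Actb was not among them. The TCF/LEF letters were in 0 of these 17 windows and in 9.33% of 32851 windows of the same length over all genes. The STAT letters were in 1 window, the Hnrnph1 promoter shown, at position -176 from the start, and in 8.3% of all windows. A match is a description of letters and says nothing of binding.

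Among the nuclear factors, the probe set with the smallest p was one of Ankrd12, an ankyrin repeat protein that binds coactivators of nuclear receptors. It read 9.93, 11.67 and 9.46 in Apc1638N/+ crypts, blank on array 3, against 7.38, 6.85 and 8.48 in wild-type crypts, blank on array 2. The measured arrays did not overlap. The means were 10.35 ± 1.16 in Apc1638N/+ and 7.57 ± 0.83 in wild type (SD, n = 3 each), a difference of 2.78 ± 0.47 (SE; limma adjusted p = 0.00912), or 6.88-fold. Of its other tested probe sets, 1 lay above wild type by 0.92 and 1 below by 0.34, and neither passed.

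Atrx, a chromatin remodelling enzyme, had a probe set at 9.43, 11.78 and 9.13 in Apc1638N/+ crypts, blank on array 3, and at 8.25, 7.19, 6.83 and 8.52 in wild-type crypts. All 3 measured Apc1638N/+ arrays were above all 4 wild-type arrays, with a difference of 2.42 ± 0.49 (SE; limma adjusted p = 0.0422). The gene's 3 other tested probe sets differed by 1.70 ± 0.58, 1.34 ± 0.34 and -0.08 ± 0.18, and none passed.

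Nucks1, a DNA-binding nuclear phosphoprotein, read 13.49, 14.03, 11.81 and 12.55 in Apc1638N/+ crypts against 11.69, 10.60, 11.52 and 11.39 in wild-type crypts on the called probe set. The groups did not overlap and differed by 1.67 ± 0.35 (SE; limma adjusted p = 0.0422). Its 3 other tested probe sets were all above wild type, by 0.41 to 0.59, without passing. Hnrnph1, a splicing factor, had a probe set at 10.29, 9.85 and 9.45 in Apc1638N/+ crypts, blank on array 3, and at 8.49, 8.50, 8.53 and 8.57 in wild-type crypts, a difference of 1.34 ± 0.28 (SE; limma adjusted p = 0.0440). The wild-type arrays agreed within 0.1 here, while another Hnrnph1 probe set differed by 0.00 ± 0.20.

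Among signalling proteins, Rapgef6, an exchange factor that loads Rap GTPases with GTP, read 10.21, 12.21, 7.14 and 9.72 in Apc1638N/+ crypts and 7.15, 7.33, 6.56 and 7.35 in wild-type crypts. The groups overlapped, because Apc1638N/+ array 3 lay within the wild-type range while the other 3 arrays were above it. The means were 9.82 ± 2.08 in Apc1638N/+ and 7.10 ± 0.37 in wild type (SD, n = 4 each), a difference of 2.72 ± 0.54 (SE; limma adjusted p = 0.0422). A second Rapgef6 probe set differed by -0.0080.

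Il6st encodes gp130, the receptor subunit shared by cytokines of the interleukin-6 family. Its tested probe set was blank on Apc1638N/+ array 1 and read 10.28, 8.72 and 9.15 on arrays 2 to 4, against 8.12, 6.59, 7.62 and 8.50 in wild-type crypts. The groups did not overlap, with means of 9.39 ± 0.81 (SD, n = 3) in Apc1638N/+ and 7.71 ± 0.83 (SD, n = 4) in wild type. The difference was 1.68 ± 0.34 (SE; limma adjusted p = 0.0422), or 3.20-fold. Of the other 3 Il6st probe sets, none passed the filter on low levels. One of them read 8.34, 7.96, 7.19 and 7.97 in Apc1638N/+ crypts and 8.18, 8.40, 7.57 and 7.60 in wild-type crypts, with overlap, another was measured on 0 Apc1638N/+ and 3 wild-type arrays, and the last on none. Dock9, an exchange factor for the GTPase Cdc42, read 9.72, 10.17 and 8.89 in Apc1638N/+ crypts, blank on array 3, and 8.55, 8.55, 8.35 and 8.13 in wild-type crypts, a difference of 1.20 ± 0.25 (SE; limma adjusted p = 0.0499). None of its other probe sets was tested. One of them was lower on average in Apc1638N/+, with overlap. It read 8.10, 7.99, 7.67 and 8.04 in Apc1638N/+ crypts and 8.33, 8.48, 7.97 and 8.17 in wild-type crypts.

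The beta-actin gene Actb was represented by 2 tested probe sets with differences of opposite sign. The called one read 14.79, 15.32, 11.89 and 12.60 in Apc1638N/+ crypts against 11.25, 10.76, 11.32 and 10.79 in wild-type crypts, a difference of 2.62 ± 0.57 (SE; limma adjusted p = 0.0471). The other read 14.88, 15.15, 16.16 and 15.37 in Apc1638N/+ crypts and 15.86, 15.71, 15.94 and 16.19 in wild-type crypts, 0.54 ± 0.18 lower (SE) without passing. The arrays that are high on the first are low on the second, so no direction is given for the gene. The called probe set without a gene symbol read 10.62, 12.52 and 11.20 in Apc1638N/+ crypts, blank on array 3, and from 8.19 to 10.08 in wild-type crypts, a difference of 2.30 ± 0.48 (SE; limma adjusted p = 0.0440).

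Of the probe sets that fell, Ext2 encodes a polymerase that extends heparan sulfate chains, the glycans through which many secreted signals are held at the cell surface. It read 7.50, 9.01 and 8.68 in Apc1638N/+ crypts, blank on array 2, against 9.85, 9.45, 9.58 and 9.37 in wild-type crypts, a difference of -1.17 ± 0.25 (SE; limma adjusted p = 0.0471). Mettl3, the catalytic subunit of the enzyme that methylates adenosine in mRNA, read 9.16, 8.42, 9.56 and 9.24 in Apc1638N/+ crypts and 9.87, 10.04, 9.86 and 9.77 in wild-type crypts. Its groups did not overlap, and it fell by 0.79 on the log2 scale (SE 0.17, limma adjusted p = 0.0499).

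AU040320 read 11.05, 10.58, 12.04 and 11.70 in Apc1638N/+ crypts and 11.80, 13.06, 12.27 and 12.55 in wild-type crypts, with overlap, a difference of -1.08 ± 0.22 (SE; limma adjusted p = 0.0422). A second AU040320 probe set differed by 0.07 ± 0.39. On all 3 fallen probe sets, Apc1638N/+ array 3 was the Apc1638N/+ array nearest to wild type.

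**Figure D2:**
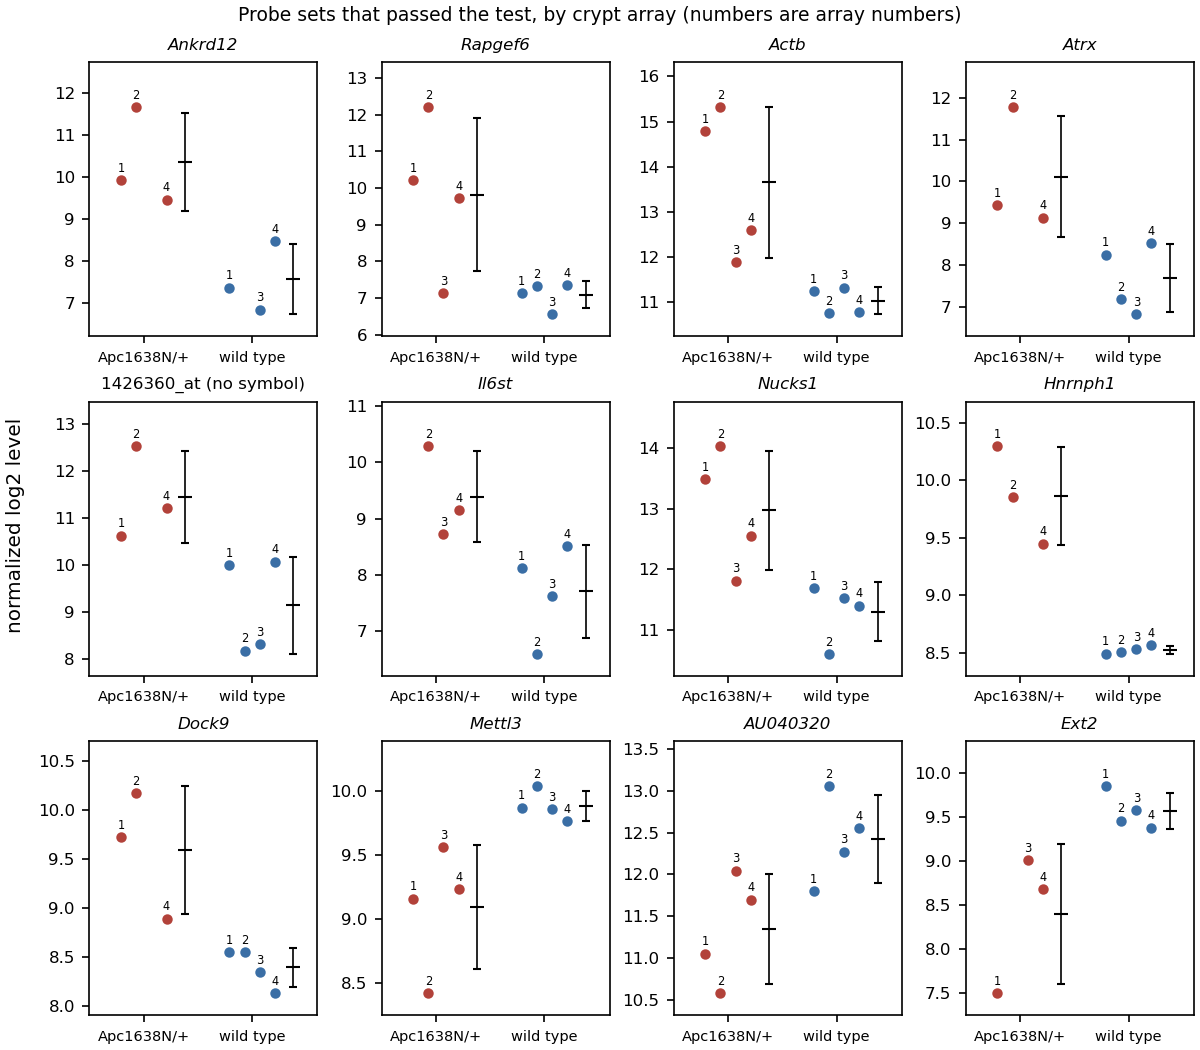
Log2 level of the 12 called probe sets on each crypt array, Apc1638N/+ left of wild type; numbered points are arrays, a missing number is a blank cell, and the black mark beside each group is its mean ± SD. On 10 of the 12 the measured arrays of the groups do not overlap, and on 8 of the 9 that rose Apc1638N/+ array 2 is the highest. The probe sets were chosen by p on these same values, so the lack of overlap is not separate support.

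The 9 risen probe sets shared an order among the Apc1638N/+ arrays. Array 2 was the highest on 8 of them. Array 3 was blank on 5 and the lowest on the 4 where it was measured. The beta-actin 3' minus 5' difference and the B1 level have the same extremes, 3.30 and 14.1 on array 2 and 1.31 and 12.4 on array 3. A fit with either measure as a covariate called 0 probe sets. These covariates were chosen after seeing the data, and planned settings such as array weights also called 0. The part of either measure in the calls was not tested. Of the 11 genes with a symbol, 7 had a further tested probe set. These 12 further probe sets lay above wild type in 7 cases and below in 5, and 0 passed.

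**Figure D3:**
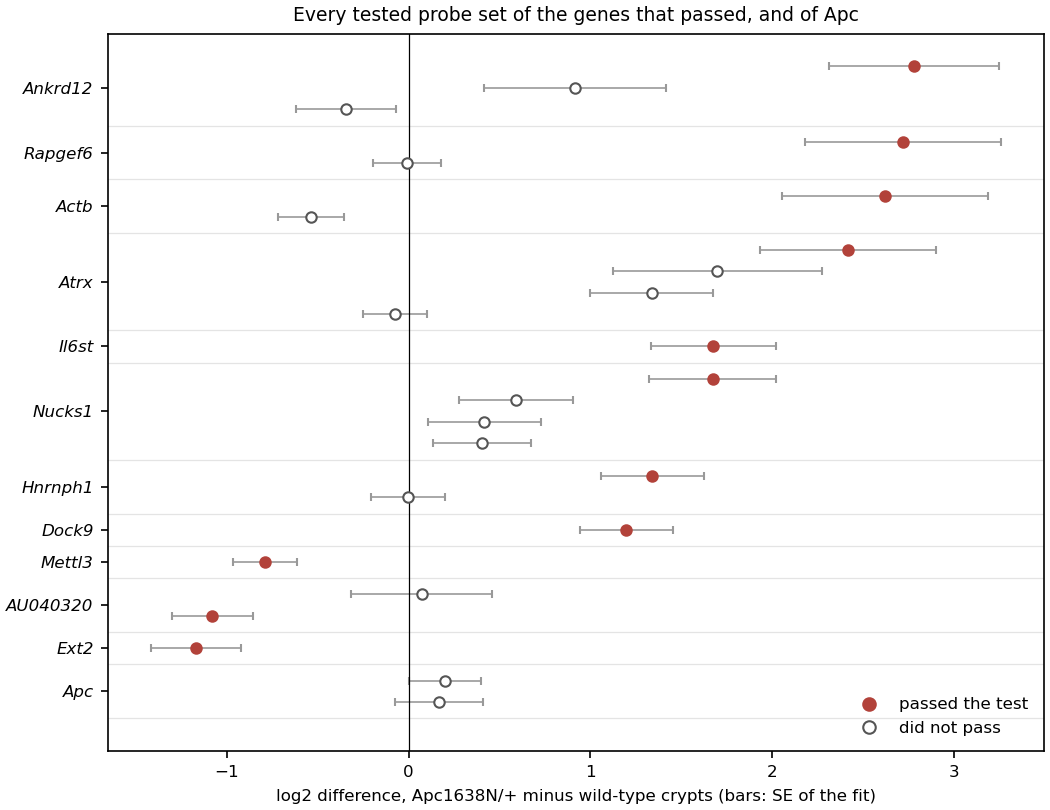
Log2 difference, Apc1638N/+ minus wild-type crypts, for every tested probe set of the called genes and of Apc, with bars of 1 SE. Called probe sets lie far from the other probe sets of Actb, Ankrd12, Hnrnph1 and Rapgef6, whereas the 4 of Nucks1 are all above 0.

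Of the probe sets that did not pass, those above wild type with the smallest p belonged to the RNA helicase Ddx46 (1.82), the ubiquitin ligase scaffold Cul5 (2.30), the chromatin remodelling ATPase Smarca2 (2.21) and the replication clamp loader subunit Rfc1 (2.33), each at a limma adjusted p of 0.0524. The probe sets of highest level of Ddx46 and Rfc1 differed by less, 0.37 ± 0.21 and 0.14 ± 0.28 (SE). Scaf11, a splicing-associated factor, differed by 2.41 without overlap (adjusted p = 0.075). All 5 of these probe sets were blank on Apc1638N/+ array 3. Below wild type, the mitochondrial phosphate carrier Slc25a3 differed by -0.57 (adjusted p = 0.0748). At a limma adjusted p of 0.0804 were the spectrin chain Sptan1 (-0.97, with -0.54 on its probe set of highest level), the receptor phosphatase Ptprf (-0.89 and -0.91 on 2 probe sets), the very long chain acyl-CoA dehydrogenase Acadvl (-0.64) and the core splicing factor Prpf8 (-1.30).

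Among the probe sets that did not overlap, Slc39a4, the intestinal zinc importer, had the largest difference below wild type. It read 9.61, 9.97, 11.04 and 10.42 in Apc1638N/+ crypts and 11.29, 11.47, 11.47 and 11.76 in wild-type crypts, a difference of -1.23 ± 0.33 (SE; limma adjusted p = 0.100). The wild-type arrays were nearly level, and the spread lay in Apc1638N/+. Mttp, which loads lipid onto apolipoprotein B, differed by -0.84 ± 0.33 (SE; limma adjusted p = 0.248) without overlap on 1 probe set. Its probe set of higher level read 13.78, 13.74, 14.09 and 15.05 in Apc1638N/+ crypts and 14.22, 14.82, 14.41 and 14.66 in wild-type crypts, with overlap, -0.36 ± 0.29.

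Among the partners of Apc, of 20 tested regulators of beta-catenin, 0 passed, 13 were above and 7 below wild type, and their median difference was 0.12, beside -0.02 over all 7289 tested genes. Ctnnb1, which encodes beta-catenin itself, differed by -0.10 ± 0.16 (SE). Axin1, the other scaffold of the destruction complex, read 7.87, 9.35, 10.22 and 8.83 in Apc1638N/+ crypts and 9.50, 9.91, 9.91 and 9.68 in wild-type crypts, a difference of -0.68 ± 0.27 (SE) that did not pass. Dvl1, which passes the receptor's signal to that complex, differed by 0.47 ± 0.25 (SE).

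Of Wnt ligands, receptors and the R-spondin system, 7 of 38 genes on the array were tested, 3 above and 4 below wild type, and 0 passed. The co-receptor Lrp6 read 9.92, 9.22, 9.58 and 9.85 in Apc1638N/+ crypts against 10.48, 10.58, 10.22 and 10.30 in wild-type crypts. Every Apc1638N/+ array was below every wild-type array, and the difference was -0.75 ± 0.24 (SE; limma adjusted p = 0.156). The frizzled receptors Fzd5 and Fzd7 differed by -0.14 and 0.59.

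Of 19 tested Wnt target genes, 0 passed, 9 were above and 10 below wild type, with a median of -0.0048. The feedback target Axin2 differed by -0.16 ± 0.39 (SE), the growth regulator Myc by 0.62 ± 0.43, the cyclin gene Ccnd1 by 0.40 ± 0.31 and the crypt transcription factor Sox9 by 0.14 ± 0.26. Ppard, a fatty acid receptor, had the largest difference. It read 9.32, 8.76, 11.81 and 9.07 in Apc1638N/+ crypts and 9.70, 11.25, 12.06 and 10.76 in wild-type crypts, -1.20 ± 0.48 (SE).

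Of 18 tested stem cell genes, 9 were above and 9 below wild type, with a median of 0.03, and 0 passed. Lgr5, the R-spondin receptor that marks crypt base stem cells, differed by 0.43 ± 0.34 (SE) and the stem cell marker Olfm4 by 0.30 ± 0.52. Among Notch and secretory fate genes 0 of 18 passed, with the Notch ligand Dll1 at 0.56 ± 0.20 and the secretory fate factor Atoh1 at 0.35 ± 0.26 (SE). Ephrins and their receptors place cells along the crypt axis. Of 6 tested, Efnb2, a ligand, read 12.76, 13.57, 12.13 and 12.92 in Apc1638N/+ crypts and 11.89, 11.31, 12.12 and 12.31 in wild-type crypts, 0.93 ± 0.25 (SE), and Epha1, a receptor, differed by -1.07 ± 0.37. Neither passed.

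Of 25 tested genes of the gp130 pathway, Il6st rose and 24 did not pass, beside 0.0686% of all genes called, and the median was -0.0066. Stat3, the main transcription factor below gp130, differed by -0.25 ± 0.33 (SE). Its feedback target Socs3 differed by -0.18 ± 0.50, Junb by -1.03 ± 0.52 and Bcl3 by -0.73 ± 0.33. The antimicrobial lectins Reg3b and Reg3g differed by 0.63 and 0.65.

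No proliferation gene passed. Of 48 tested mitosis genes 36 were above wild type, with a median of 0.20, 0 at an unadjusted p under 0.05. Of 35 S phase genes 22 were above (median 0.15), and of 43 ribosome biogenesis genes 28 were above (median 0.10). The proliferation marker Mki67 differed by 0.16 ± 0.41 and the replication clamp Pcna by -0.12 ± 0.20 (SE). With the score added to the model the mitosis median was 0.03. Among 12 p53 targets the median was 0.21. Mdm2, the ligase that degrades p53, read 9.38, 11.42, 9.24 and 9.55 in Apc1638N/+ crypts and 8.67, 8.95, 9.09 and 9.04 in wild-type crypts without overlap, 0.96 ± 0.36 (SE), and Cdkn1a, which encodes the cell cycle inhibitor p21, differed by -0.51 ± 0.25. Neither passed.

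Of 43 tested genes of mature enterocytes, 37 were below wild type and 6 above, with a median of -0.43, and 9 (20.9%) were below at an unadjusted p under 0.05, beside 7% of all tested genes, but 0 passed after adjustment. Cdhr2, a protocadherin of the brush border, read 11.32, 11.42, 12.68 and 12.35 in Apc1638N/+ crypts against 11.78, 13.98, 13.18 and 13.55 in wild-type crypts, -1.18 ± 0.31 (SE). Its partner Cdhr5 read 12.17, 11.45, 13.70 and 12.42 in Apc1638N/+ crypts and 12.46, 14.09, 13.80 and 13.56 in wild-type crypts, -1.04 ± 0.32. The alkaline phosphatase Alpi read 12.66, 13.39, 14.16 and 14.62 in Apc1638N/+ crypts and 13.86, 14.87, 14.80 and 14.73 in wild-type crypts, -0.86 ± 0.31.

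The folate transporter Slc46a1 differed by -1.36 ± 0.56, the peptidase Anpep by -1.38 ± 0.74 and the fatty acid binding protein Fabp1 by -0.13. The crypt-villus score, which is itself built in part from villus genes, was lowest on wild-type arrays 2 and 4. Without wild-type arrays 2 and 4 the enterocyte median was 0.03, and with the score as a covariate it was -0.22.

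Of 14 tested lymphocyte genes, 13 were below wild type, with a median of -0.71, and 0 passed, while 3844 of all 7289 genes were below. The granzyme gene Gzma read 11.65, 11.21, 13.62 and 10.96 in Apc1638N/+ crypts and 12.15, 13.09, 12.89 and 14.13 in wild-type crypts, -1.21 ± 0.45 (SE). Granzyme Gzmb differed by -1.18 and the chemokine Ccl5 by -1.25. Over the 9 lymphocyte genes measured on all 8 arrays, the mean level was 9.21, 9.07, 10.51 and 8.65 in Apc1638N/+ crypts and 8.97, 10.38, 9.75 and 11.34 in wild-type crypts, so the genotypes overlapped. Without wild-type arrays 2 and 4 the median was 0.13. Of 25 interferon response genes, 20 were below wild type (median -0.24), and 0 passed.

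Of 10 tested Paneth cell genes, 8 were above wild type, with a median of 0.29, 3 at an unadjusted p under 0.05, beside 5.3% of all tested genes above wild type at that p, and 0 after adjustment. Mptx1, a pentraxin of Paneth cells, read 11.53, 11.37, 9.97 and 8.87 in Apc1638N/+ crypts and 8.70, 10.38, 9.42 and 7.52 in wild-type crypts, 1.43 ± 0.66 (SE). The matrix protease Mmp7, which activates defensins and is also a Wnt target, read 12.35, 12.13, 11.40 and 10.11 in Apc1638N/+ crypts and 10.28, 11.18, 10.92 and 10.52 in wild-type crypts, 0.77 ± 0.38. The phospholipase Pla2g2a differed by 0.77 ± 0.31 and lysozyme Lyz1 by 0.25 ± 0.41. The Paneth median ranged from 0.06 to 0.82 as single arrays were left out.

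In the remaining lists 0 genes passed. Of 7 myeloid and antigen-presenting cell genes 6 were above wild type (median 0.31), with the macrophage lysozyme Lyz2 at 0.64 ± 0.39 (SE). The medians were 0.37 over 4 pancreatic acinar genes, 0.21 over 6 class II histocompatibility genes and 0.0041 over 6 B and plasma cell genes. Goblet cell genes had 8 of 16 above wild type, with the mucin Muc2 at -0.49 ± 0.28 (SE). Enteroendocrine genes had 11 of 14 above (median 0.17), with the hormone precursor Tac1 at 0.69 ± 0.29. Of 34 immediate early and heat shock genes 0 passed. The chaperone Hspa1b read 15.26, 15.41, 15.20 and 15.72 in Apc1638N/+ crypts and 14.75, 13.50, 15.05 and 14.36 in wild-type crypts, without overlap, 0.98 ± 0.54. Among BMP and hedgehog genes, Ihh, the epithelial hedgehog ligand, differed by -0.84 ± 0.38 and Bmp2 by 0.72 ± 0.35. Fatty acid oxidation genes had 20 of 32 below (median -0.10) and cholesterol synthesis genes a median of 0.05.

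**Figure D4:**
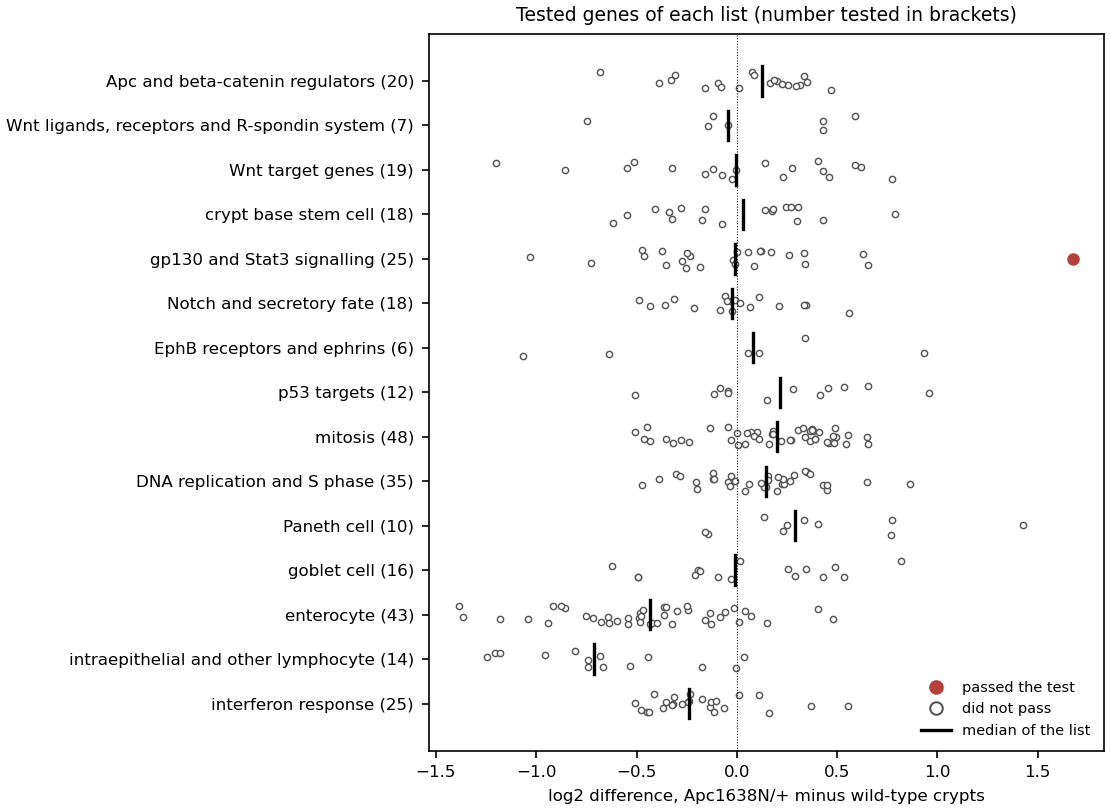
Log2 difference, Apc1638N/+ minus wild-type crypts, of each tested gene by list; a point is a gene, the line in each list is its median, and a filled red point passed the test. Il6st at 1.68 is the only filled point, and the enterocyte and lymphocyte medians, -0.43 and -0.71, lie lowest among the lists of 6 or more genes.

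Among the single arrays left out in turn, Apc1638N/+ array 3 changed the count most. It is the Apc1638N/+ array most like wild type, so leaving it out can widen the difference by construction, and the values in this setting describe the other 7 arrays and do not test the genotype. With 3 Apc1638N/+ arrays against 4 wild-type arrays, 1061 of 10916 tested probe sets passed by limma (9.72%), 546 of which rose (5%) and 515 fell (4.72%), and 10 of the 12 above were among them. Among those that rose were the noncoding RNA Malat1 and the splicing factor Luc7l3, and among those that fell were the spliceosome protein Prpf8 and the granzyme Gzma. The values of array 3 for these probe sets lay inside the wild-type range in 379 of the 546 that rose and in 325 of the 515 that fell. It was below every wild-type array on 90 of those that rose and above every wild-type array on 157 of those that fell. Without array 3 of both genotypes, 456 of 10685 passed (4.27%), 242 of which rose (2.26%) and 214 fell (2%).

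Malat1, an abundant RNA that stays in the nucleus, read 13.98, 15.14, 9.01 and 14.89 in Apc1638N/+ crypts and 12.76, 9.33, 9.27 and 13.82 in wild-type crypts. Arrays of both genotypes fell into high values near 14 and low values near 9, and the difference was 3.37 ± 0.79 (SE) without Apc1638N/+ array 3 and 1.96 ± 0.90 with it, where it did not pass. Luc7l3, a splicing factor, read 12.91, 14.29, 9.50 and 12.14 in Apc1638N/+ crypts and 10.60, 8.73, 9.69 and 11.26 in wild-type crypts, 3.04 ± 0.59 (SE) without array 3. U2surp, a component of the spliceosome, read 11.30, 12.80, 8.32 and 10.97 in Apc1638N/+ crypts and 9.71, 7.82, 8.14 and 9.18 in wild-type crypts, 2.98 ± 0.59 (SE) without array 3.

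These 3 transcripts were higher on the same arrays: 1, 2 and 4 of Apc1638N/+ and 1 and 4 of wild type. Rapgef6 (3.61 ± 0.46), the chromatin proteins Arid4b (2.92 ± 0.65) and Arid4a (2.69 ± 0.63), the splicing factor Luc7l (2.68 ± 0.50) and the cyclophilin Nktr (2.67 ± 0.71) also rose without array 3 (log2 difference ± SE). Within Apc1638N/+ the B1 and beta-actin 3' minus 5' values were also lowest on array 3, whereas within wild type both were higher on arrays 2 and 4 than on arrays 1 and 3. Their part in the change without array 3 was not tested.

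Among genes that fell without Apc1638N/+ array 3, Prpf8, the core spliceosome protein, read 8.89, 8.76, 11.38 and 9.73 in Apc1638N/+ crypts and 11.25, 10.59, 11.24 and 10.89 in wild-type crypts, -1.86 ± 0.27 (SE) without array 3 and -1.30 with it. Arrays 1, 2 and 4 of Apc1638N/+ were below all wild-type arrays, and array 3 was above all of them. Slc38a10, an amino acid transporter family member, read 9.19, 7.89, 11.23 and 9.86 in Apc1638N/+ crypts and 10.39, 10.41, 11.24 and 10.79 in wild-type crypts, -1.73 ± 0.30 (SE) without array 3.

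Some members of the gene lists passed in that setting. Without Apc1638N/+ array 3, 247 of 6524 genes rose (3.79%) and 370 fell (5.67%), 617 in all (9.46%). Of the beta-catenin regulators Axin1 fell (-1.06 ± 0.24), and of 17 Wnt targets Ppard (-1.89 ± 0.44) and Zfp703 (-1.25 ± 0.36) fell. Of 40 enterocyte genes Cdhr2 (-1.43), Cdhr5 (-1.46) and Alpi (-1.01) fell, which is 7.5%, and of 10 lymphocyte genes Gzma (-1.79), Gzmb (-1.83) and Ccl5 (-2.13) fell. Efnb2 (1.17), Dll1 (0.69) and Mdm2 (1.18) rose. Also below wild type in this setting were the gp130 pathway gene Bcl3 (-1.09), the goblet cell gene Fcgbp (-0.85), the fatty acid oxidation genes Acadvl (-0.79) and Hadha (-0.76) and the interferon response gene Irf8 (-0.75). Of 46 mitosis genes and 17 stem cell genes 0 passed.

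**Figure D5:**
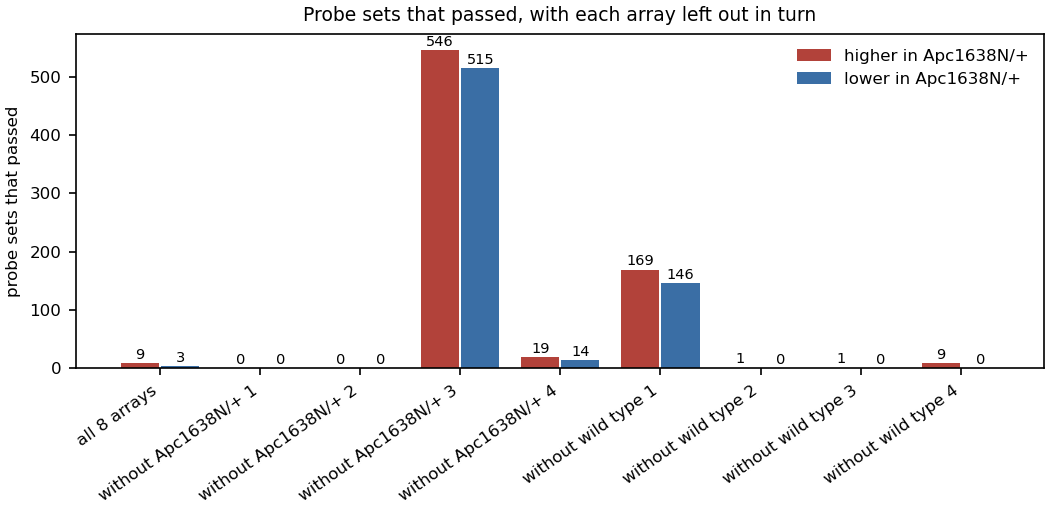
Number of probe sets that passed in Apc1638N/+ against wild-type crypts when the array named was left out, beside the count with all 8 arrays. The counts are 12 with all arrays, 1061 without Apc1638N/+ array 3, 315 without wild-type array 1 and 0 without Apc1638N/+ array 1 or 2.

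Whether the difference was particular to crypts was tested as the Apc1638N/+ effect in crypts minus that in villi. Of 11559 tested probe sets 0 passed by limma (0%), with 812 at an unadjusted p under 0.05, so no called probe set was shown to respond differently in the 2 tissues. The count was 34 without Apc1638N/+ crypt array 3 and 5 without Apc1638N/+ crypt array 4. In villi alone, 0 of 12854 passed (0%), with 652 at an unadjusted p under 0.05. Ankrd12 differed by 2.78 in crypts and by -0.22 ± 0.41 in villi, with a crypt minus villus difference of 3.01 ± 0.62 (SE; limma adjusted p = 0.0935). Il6st had a crypt minus villus difference of 1.92 ± 0.47 (adjusted p = 0.169) and Hnrnph1 one of 1.91 ± 0.41 (adjusted p = 0.103).

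The smallest p of this test belonged to Tsc22d3, a glucocorticoid-induced leucine zipper protein. It read 10.11, 10.24 and 9.50 in Apc1638N/+ crypts, blank on array 4, against 8.78, 9.15, 8.87 and 8.72 in wild-type crypts. In villi it read 7.63, 8.41, 8.19 and 8.30 in Apc1638N/+ against 8.80, 9.18, 8.78 and 9.08 in wild type. Apc1638N/+ was thus above wild type in crypts and below it in villi without overlap in either tissue, and the crypt minus villus difference was 1.89 ± 0.37 (SE; limma adjusted p = 0.0764). Its 2 other tested probe sets differed by -0.05 and -0.41. Below 0 the smallest p belonged to Mettl3, at -0.996 ± 0.25 (adjusted p = 0.169).

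Crypts of p21-/- mice, which lack the cell cycle inhibitor encoded by Cdkn1a, were the other genetic model at this age. Rapgef6 differed from wild type by 2.72 in Apc1638N/+ and by 3.49 in p21-/- crypts, Ankrd12 by 2.78 and 2.36, Nucks1 by 1.67 and 2.62, and Il6st by 1.68 and 1.19. Of the 9 risen probe sets, 6 also rose in p21-/- crypts by limma. Those of Dock9 and without a gene symbol were not tested there. Over all probe sets tested in p21-/- against wild-type crypts, 327 of 11724 rose. In p21-/- crypts Hnrnph1 differed by 0.70, Mettl3 by -0.37 and AU040320 by -0.69, without passing. Both comparisons use the same 4 wild-type arrays, so these values are not independent of each other. The p21-/- crypt arrays read 13.4 to 14.5 on the B1 repeat and 2.02 to 3.11 on beta-actin 3' minus 5'. Whether these measures bear on the shared differences was not tested.

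Compared directly, Apc1638N/+ minus p21-/- crypts, 27 of 11451 probe sets passed by limma (0.236%), 12 above and 15 below. Of the 12 probe sets called against wild type, 9 were tested here and differed by -0.95 to 0.76 without passing. The count of 27 was 690 without Apc1638N/+ array 3, 2 without Apc1638N/+ array 4, and 120, 11 and 12 without p21-/- array 1, 2 or 3. Zfp943, a zinc finger gene, read 9.91, 9.38, 9.67 and 10.01 in Apc1638N/+ crypts and 8.12, 8.60, 7.98 and 8.45 in p21-/- crypts, 1.45 ± 0.21 (SE; limma adjusted p = 0.000276). Nabp1, a single-stranded DNA binding protein, differed by 1.91 ± 0.32 (adjusted p = 0.00334), and the Ets family repressor Etv3 by 1.41 ± 0.28 (adjusted p = 0.0267). Their other tested probe sets, 2 each, lay above p21-/- crypts by 0.61 and 0.24 for Nabp1 and by 0.21 and 0.48 for Etv3, without passing. Below p21-/- crypts were the mRNA editing cofactor A1cf (-1.25 ± 0.26, adjusted p = 0.0358), the secretory pathway protein Tmed6 (-1.81 ± 0.38, adjusted p = 0.0390) and the F-box protein Fbxo7 (-0.91 ± 0.17, adjusted p = 0.0182). All of these genes differed less from wild type in Apc1638N/+ than in p21-/- crypts. Zfp943 differed from wild type by 0.04 in Apc1638N/+ and -1.41 in p21-/-, Nabp1 by 0.36 and -1.54, and Etv3 by -0.21 and -1.62. In the same order, A1cf differed by 0.17 and 1.42, Tmed6 by -0.32 and 1.49, and Fbxo7 by -0.37 and 0.54.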

How the data were processed

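The deposited table holds log2 values of 45101 probe sets on 47 arrays, made by the authors with GCOS, per the submitters' processing notes; its version, scale target, centring and the reason for the blank cells (55.2% of all) are not given in the sources used here. Log2 was read from the range of the values, 3.50 to 18.3. Control probe sets (64) were set aside. Values were quantile normalized on the 8350 probe sets measured on every array, the others by interpolation. Probe sets above the array median on at least 3 arrays (14919) and measured on at least 3 arrays of each compared group were tested with limma 3.58.1 in R 4.3.3, in 1 fit over all 12 groups with a mean-variance trend, and p-values were adjusted by Benjamini-Hochberg over all tested probe sets. Gene symbols came from the platform annotation: 34945 probe sets had 1 symbol, 932 several and 9160 none. In gene lists a gene is shown by its tested probe set of highest mean level, and a probe set named for its own p or difference may be another one. Single values were compared by exact permutation of the 8 arrays (70 regroupings). The number of arrays limits precision. No scan date or batch is given.

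Genes named are those called, the 12 smallest p in each direction, the 10 largest differences in each direction without overlap, members of gene lists with values for up to 6 a list beside those that define it, calls of the alternatives printed as a count, and the 5 smallest p in each direction of the crypt minus villus and p21-/- comparisons. The comparison and lists were chosen with earlier results of these data known. The pipeline was tested on simulated data of the 12535 probe sets of the main comparison: of 100 probe sets changed by 1 on the log2 scale 51 were called, of 100 changed by 2, 93, and of 12335 unchanged ones 7. The simulated noise was normal and independent for each value, without shifts of whole arrays. These rates therefore do not show how often calls are right or missed on arrays as uneven as these. Promoter sequences are from RefSeq (GRCm38.p6).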

Additional observations from a re-analysis of the deposited data

Results flagged for a closer look

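Groups of 4 array values were taken from array measures and from probe sets named for the comparison with wild-type crypts. Of 111 such groups, 6 held an array far from the other 3, where chance gives about 1 in 20 groups. In Apc1638N/+ crypts, array 2 was lowest for the nuclear receptor Nr2c1 (7.21, the next 8.26) and for the pantothenate kinase family gene Pank4 (8.27, the next 9.25), the lowest Ctnnb1 value was 13.95 (the next 14.41), and the highest Socs3 value was 12.51 (the next 10.38). In wild-type crypts the lowest Alpi value was 13.86 (the next 14.73) and the lowest Fabp1 value 16.06 (the next 16.47).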

How the results depend on the processing

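In Apc1638N/+ against wild-type crypts, 12 probe sets passed. Planned settings with another count gave 20 with no filter on low values, 2 without wild-type arrays 2 and 4, and 1 with blanks set to the 1st percentile. That 1 probe set fell and was not among the 12. The count was 0 with 1 probe set per gene, with only the groups compared, with only the 6 crypt groups or with array weights. It was also 0 with only probe sets measured on all 8 arrays compared, with the number of measured probe sets as a covariate, or without Apc1638N/+ arrays 1 and 2. With deposited scaling there were 16, with the score added to the model 14, and without the trend 12. Settings chosen after seeing the data gave 0 with the beta-actin or B1 covariate and 456 without array 3 of both groups. Leaving out single arrays gave 0 to 1061. The 12 called probe sets kept their direction in every setting that tested them, and each lost its call in some.

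Same-numbered arrays did not deviate together in every pair (r of 0.088, -0.00095, 0.577 and 0.183), so the numbers are not taken as a pairing. With a replicate block 77 probe sets passed here, 2 in crypts minus villi and 100 in Apc1638N/+ minus p21-/- crypts.

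Crypts minus villi called 0 probe sets, 2 with no filter, and 0 to 34 as single arrays were left out. Apc1638N/+ minus p21-/- crypts called 27, 5 with deposited scaling, 0 with only the groups compared, and 2 to 690 as single arrays were left out. The crypt-villus score difference of 0.41 ranged from 0.12 to 0.84 and that of measured probe sets, -2154, from -3454 (without Apc1638N/+ array 4, exact permutation p = 0.0286) to -1308. For 64 named probe sets that did not pass, 91 of 1547 values passed under an alternative, and 68 changed sign without passing in either. The causes were not tested. Levels near the background limit have blanks, so a low transcript may be missed.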

Other observations

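Some probe sets were blank throughout 1 genotype and measured throughout the other. Apc1638N/+ arrays 1 and 2 had the fewest measured probe sets of the 8, 15802 and 15418. The number measured did not separate the genotypes (exact permutation p = 0.2, two-sided). The part of these sparse arrays in the counts that follow was not tested. Among all probe sets outside the controls, 9 were measured on all 4 Apc1638N/+ crypt arrays and on 0 wild-type crypt arrays, and 37 on 0 Apc1638N/+ and all 4 wild-type arrays, while 11330 were measured on all 8 and 16672 on none. The first kind included Hdac7, a class II histone deacetylase, at a mean log2 level of 8.34 where measured, and Cnn3, an actin-binding calponin, at 7.54. The second kind included the ubiquitin ligase family gene Hectd4 at 9.998, Trpc4ap at 9.90 and Coq10a, which acts in coenzyme Q function, at 8.30. No fold was computed for these, since a blank has no value.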
